A study of Mus musculus with 27 samples.

Results

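Pressure overload was examined in the left ventricle of mice that carry caPI3Kalpha, a version of the lipid kinase phosphoinositide 3-kinase alpha that is always switched on. The comparison takes 4 of the 27 libraries of the series: the messenger RNA (mRNA) libraries of animals 11 and 211, which had transverse aortic constriction (TAC), against those of animals 5 and 8, which had a sham operation. All 4 were chosen by their labels. TAC narrows the aorta and makes the ventricle pump against a higher pressure. The mice were adult FVB animals, each library came from 1 mouse, and the ventricle was collected on day 7 after the operation. What both groups share is the caPI3Kalpha allele, so they show load on top of an already active pathway; the promoter that drives the transgene is not given in the sources used here. Wild-type (WT) mice of the same strain, 4 sham and 3 TAC libraries, serve below only to test where the response to load differed between the genotypes. Values are RPKM (reads scaled to transcript length and to the library's total) of 8987 genes.

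PI3Kalpha acts downstream of the insulin and insulin-like growth factor receptors, and in heart muscle cells its best known downstream kinase is Akt. The pathway is known for physiological growth of the heart, the kind that comes with exercise. Pressure load is known for another response: heart muscle cells re-express genes of fetal life such as those for the natriuretic peptides and skeletal actin, fibroblasts lay down matrix, and genes of fatty acid oxidation and calcium handling often decline.

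The transgene was visible in all 4 libraries: Pik3ca, which encodes the kinase's catalytic subunit, stood at 115.4 and 195.0 RPKM in sham 5 and sham 8 and at 110.5 and 101.3 RPKM in TAC 11 and TAC 211, against 5.3 to 8.9 RPKM in the 7 WT libraries. Its level in TAC was lower than in both sham libraries, with a log2 change of -0.50 (SE 0.25, limma adjusted p = 0.484). Ventricular muscle was present as labelled, with Myl2, the ventricular myosin light chain, at 2608.5 to 3338.4 RPKM. The 4 libraries resembled one another, with Spearman's rho between 0.9603 and 0.9786 for the 6 pairs. The 2 sham libraries had 54 genes that stood at least 2-fold apart and the 2 TAC libraries had 90. Depth is unknown, since RPKM with 1 decimal does not give read numbers.

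With 2 libraries a side, no gene passed an adjusted p of 0.05 in limma (0% of 8987 genes; the lowest was 0.0796, for Acta1), while 661 genes were higher and 484 lower in TAC at an unadjusted p under 0.05, 7.36% and 5.39% of all genes. Levels are therefore described, and a gene is called separated where both TAC libraries lay on the same side of both sham libraries and the group means of log2(RPKM + 0.5) were at least 1.5-fold apart. By that description 189 genes (2.1%) were higher and 111 genes (1.24%) lower in TAC. Without the fold limit the 2 groups did not overlap for 2015 higher genes (22.4%) and 1794 lower genes (20%). Over all genes the log2 changes had a median of 0.01. These counts changed when 1 library was left out: without TAC 11 there were 371 higher and 200 lower, without sham 8 276 and 178, without sham 5 227 and 136, and without TAC 211 169 and 104. With 1 library left on a side the rule is easier to meet, so a count can rise for that reason alone. The same holds for every count of separated genes below that leaves out 1 library. In 1 model of all 11 mRNA libraries with a term for the library set, 58 genes (0.645%) rose and 35 (0.389%) fell at an adjusted p under 0.05. That set is a split of the libraries that the labels do not give; all 4 caPI3Kalpha libraries, WT sham 6 and WT TAC 1 lie in the first set and the other 5 WT libraries in the second. In the same model without the term no gene passed (454 at an unadjusted p under 0.05). Because all 4 caPI3Kalpha libraries share a set, the term alters the spread used and not their log2 changes. Single log2 changes below carry the SE of the 4-library fit; their adjusted p-values lay between 0.0796 and 0.999, so they are given as values and not as calls.

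The best separated genes of high level belong to the classical stress response of heart muscle. Nppa, Acta1 and Ankrd1 are shown by the 250 bases before their annotated start, because they moved together and are the 3 genes of the 12 largest higher values that average at least 100 RPKM and have 1 entry in the RefSeq promoter table of GRCm38.p6 (Ankrd23, the other gene at that level, has 2 entries). Nppa lies at chr4:148000472-148000721 on the plus strand, Acta1 at chr8:123894776-123895025 on the minus strand and Ankrd1 at chr19:36119845-36120094 on the minus strand. Capitals mark matches on either strand to MCAT (CATTCC, the site of TEAD factors), GATA (GATAA) or the CArG box of serum response factor.
Nppa: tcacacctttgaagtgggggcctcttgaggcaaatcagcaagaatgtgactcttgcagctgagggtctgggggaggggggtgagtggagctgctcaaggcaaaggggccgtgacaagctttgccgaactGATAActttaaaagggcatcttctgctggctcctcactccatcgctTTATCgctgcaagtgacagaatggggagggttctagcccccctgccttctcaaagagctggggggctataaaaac
Acta1: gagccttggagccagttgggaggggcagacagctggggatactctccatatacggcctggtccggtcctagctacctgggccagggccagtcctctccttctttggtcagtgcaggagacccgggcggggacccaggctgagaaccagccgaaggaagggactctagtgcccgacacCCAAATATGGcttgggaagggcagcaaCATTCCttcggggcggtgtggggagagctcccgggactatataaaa
Ankrd1: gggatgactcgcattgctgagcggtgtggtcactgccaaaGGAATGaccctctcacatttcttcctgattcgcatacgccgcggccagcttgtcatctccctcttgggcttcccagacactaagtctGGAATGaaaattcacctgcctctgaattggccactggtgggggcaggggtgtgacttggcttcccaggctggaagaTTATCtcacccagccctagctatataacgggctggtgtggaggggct
The Nppa window holds 2 GATA matches, the Acta1 window 1 MCAT match and 1 CArG box, and the Ankrd1 window 2 MCAT matches and 1 GATA match. Of 32851 promoter windows of 250 bases, 12.6% hold MCAT, 22.6% GATA and 1.47% a CArG box, so the first 2 are common letters. No binding was measured here, and a match describes letters only.

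Nppa encodes atrial natriuretic peptide, a hormone that the fetal ventricle makes and the loaded ventricle makes again. It stood at 150.9 and 85.5 RPKM in sham 5 and sham 8 and at 426.3 and 650.9 RPKM in TAC 11 and TAC 211. Both TAC libraries were far above both sham libraries, by 4.62-fold on the log2(RPKM + 0.5) scale (log2 2.21, SE 0.33, limma adjusted p = 0.215). Acta1 encodes the actin of skeletal muscle, and it stood at 448.3 and 403.8 RPKM in sham and 1567.3 and 1806.4 RPKM in TAC, which is 3.95-fold higher (log2 1.98, SE 0.11, limma adjusted p = 0.0796). Its 2 sham libraries lay close together, as did its 2 TAC libraries. Ankrd1, which encodes a stress-responsive protein of the sarcomere and nucleus, stood at 643.1 and 500.1 RPKM in sham and 1426.5 and 1688.1 RPKM in TAC (log2 1.45, SE 0.16, limma adjusted p = 0.161). Nppb, which encodes B-type natriuretic peptide, was less even, with 224.1 and 75.7 RPKM in sham and 236.5 and 404.4 RPKM in TAC. TAC 11 exceeded sham 5 only slightly for Nppb, and its log2 change was 1.24 (SE 0.55).

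Of 20 measured natriuretic and fetal genes 8 were separated higher and 2 lower, beside 2.1% and 1.24% of all genes, with a median log2 change of 0.42 against 0.01 for all genes. The 2 lower members were Acta2, the smooth muscle actin, and Corin, the protease that activates atrial natriuretic peptide (43.3 and 32.0 RPKM in sham, 24.9 and 18.2 RPKM in TAC); Corin was chosen after its values were seen. Among 29 Z-disc and sarcomere stress genes 7 were separated higher and none lower, with a median of 0.20. Ankrd23, a relative of Ankrd1 at the Z-disc and I-band, stood at 169.3 and 193.4 RPKM in sham and 389.5 and 510.4 RPKM in TAC. Xirp2, which binds actin at cell junctions, stood at 69.5 and 86.6 RPKM in sham and 174.5 and 172.1 RPKM in TAC, and Nrap, an anchoring protein of forming myofibrils, at 109.9 and 118.3 and at 182.1 and 230.9 RPKM. For each of these 3 genes the lower TAC library was above the higher sham library by a wide margin. Rcan1, a target and regulator of calcineurin, stood at 29.3 and 27.1 RPKM in sham and at 55.8 and 109.7 RPKM in TAC, so that TAC 211 held about as much again as TAC 11 (log2 1.46, SE 0.32).

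The myosin heavy chains moved little. Myh7, the slow isoform whose return often accompanies hypertrophy in mice, had overlapping groups, with 984.0 and 833.8 RPKM in sham and 831.1 and 1525.8 RPKM in TAC (log2 0.31, SE 0.30; -0.12 without TAC 211). Myh6, the adult isoform, stood at 3796.2 and 3032.4 RPKM in sham and 2872.2 and 2643.3 RPKM in TAC, a log2 change of -0.30 (SE 0.13). How reads shared by these 2 near-identical genes were assigned is not given in the sources used here. Lmod2, which elongates the actin filaments of the sarcomere, was 202.1 and 221.3 RPKM in sham and 327.4 and 326.2 RPKM in TAC, and Actc1, the cardiac actin, overlapped between the groups at a log2 change of 0.10.

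**Figure D1:**
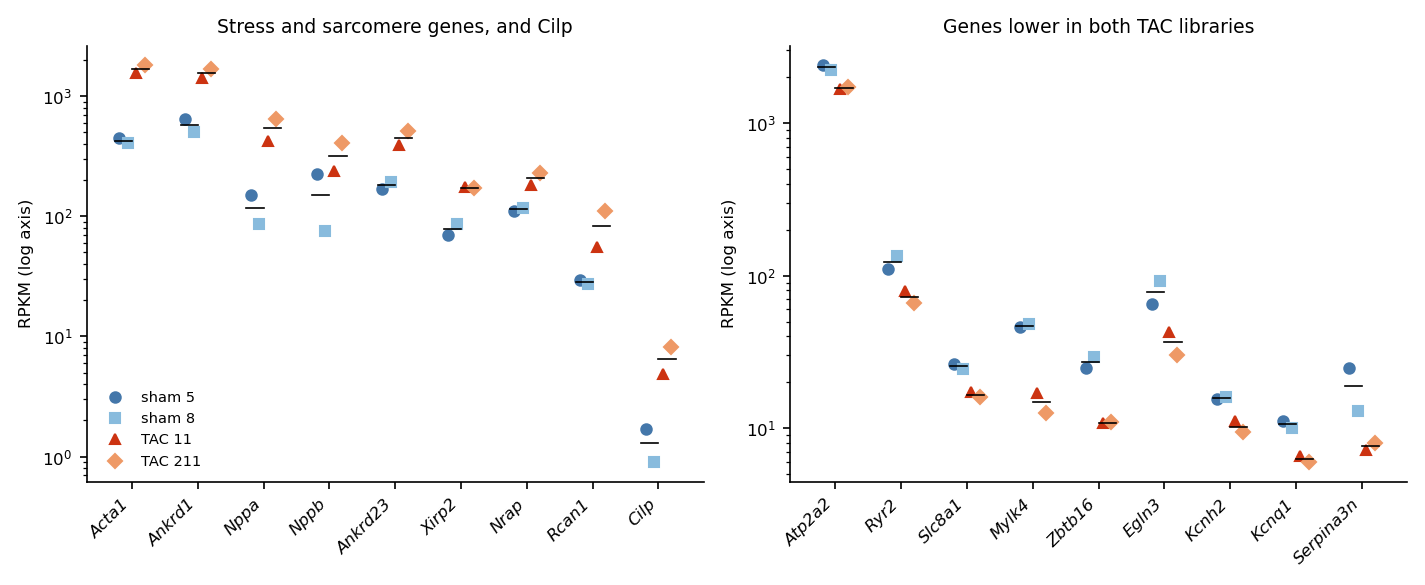
RPKM (log axis) of 18 genes in each caPI3Kalpha library, with symbols for sham 5, sham 8, TAC 11 and TAC 211 and short black lines at the mean of the 2 libraries of a group. In the left panel both TAC values lie above both sham values for every gene, by little for Nppb in TAC 11, and in the right panel both lie below, with sham 5 apart from sham 8 for Serpina3n.

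Matrix genes were modestly higher. Of 77 extracellular matrix genes in the list 66 were measured; 17 of them were separated higher and 1 lower, beside 2.1% and 1.24% of all genes, and the median log2 change was 0.36. The groups did not overlap for 41 of the 66 in the higher direction and 4 in the lower, beside 22.4% and 20% of all genes. Because these are bulk samples, more cells of a type and more RNA per cell cannot be told apart. Cilp, a matrix protein of cartilage and of stressed heart fibroblasts, was low in sham at 1.7 and 0.9 RPKM and stood at 4.9 and 8.1 RPKM in TAC (log2 1.96, SE 0.31, limma adjusted p = 0.215). Postn, which encodes periostin, a product of activated fibroblasts, was 13.5 and 14.2 RPKM in sham and 28.0 and 28.8 RPKM in TAC, with almost no spread inside either group (log2 1.01, SE 0.09, limma adjusted p = 0.159). Col8a1, a short-chain collagen, showed the same tight pairs, 7.3 and 7.4 RPKM in sham and 14.7 and 14.3 RPKM in TAC. Mfap4, a protein of elastic fibres, stood at 3.0 and 3.4 and at 7.7 and 9.2 RPKM, and Mgp, which inhibits calcification, at 162.0 and 151.7 and at 260.7 and 248.5 RPKM.

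The main fibrillar collagens were only slightly higher. Col1a1 stood at 19.5 and 14.8 RPKM in sham and 22.6 and 28.3 RPKM in TAC (log2 0.56, SE 0.18), and Col3a1 at 36.1 and 23.3 RPKM in sham and 39.1 and 46.3 RPKM in TAC (log2 0.54, SE 0.22); neither reached the 1.5-fold limit. Fn1, which encodes fibronectin, overlapped completely, at 6.5 and 6.7 RPKM in sham and 5.4 and 7.9 RPKM in TAC, a gene chosen after its values were seen. The connective tissue growth factor Ctgf stood at 39.3 and 27.4 RPKM in sham and 46.1 and 109.0 RPKM in TAC, so that most of its difference came from TAC 211 (log2 0.48 with TAC 11 alone and 1.72 with TAC 211 alone). Thbs1, which encodes thrombospondin 1, was still more uneven: 1.1 and 1.9 RPKM in sham, 3.2 RPKM in TAC 11 and 15.5 RPKM in TAC 211. Timp4, an inhibitor of matrix metalloproteinases and the 1 separated lower member, stood at 5.0 and 6.1 RPKM in sham and 2.9 and 2.7 RPKM in TAC; it was chosen after its values were seen.

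The interaction of genotype and operation tests whether load acted differently in caPI3Kalpha than in WT, in 1 limma model of all 11 mRNA libraries. It passed an adjusted p of 0.05 for 28 genes (0.312%), in all of which the change was more negative in caPI3Kalpha than in WT; 0 genes (0%) passed in the other direction. Of the 66 matrix genes 12 passed. The median log2 change of the 66 was 0.36 in caPI3Kalpha and 1.49 in WT. It was 1.59 for the single pair WT TAC 1 and WT sham 6, which lies in the library set of the caPI3Kalpha libraries. In 61 of 66 the caPI3Kalpha change was below that of all WT libraries, beside 69.7% of all 8987 genes. It was below that pair's change in 64 of 66. That pair is 1 library a side and no share over all genes was taken, so this count cannot be judged. Over all genes the WT median change was 0.17 (0.14 for that pair), above the 0.01 in caPI3Kalpha. Scaled so that library medians are equal, 12 genes passed, all more negative, 6 of them in the matrix list. With quantile normalization 18 genes passed, 15 more negative and 3 more positive in caPI3Kalpha, with 8 matrix genes among the former.

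Postn showed the plainest difference. In WT it stood at 11.1, 11.8, 12.1 and 8.4 RPKM in sham 6, 7, 13 and 15 and at 142.9, 200.9 and 168.7 RPKM in TAC 1, 17 and 19. Every WT TAC library was thus several times above the caPI3Kalpha TAC libraries, while every WT sham library was slightly below the caPI3Kalpha sham libraries. Its log2 change was 3.92 in WT and 1.01 in caPI3Kalpha, a difference of -2.91 (SE 0.25, limma adjusted p = 0.00105). Col8a1 differed by -1.63 (SE 0.23, limma adjusted p = 0.0156) and Col3a1 by -2.31 (SE 0.40, limma adjusted p = 0.0455). For Col3a1 the limma adjusted p was 0.0698 with quantile normalization and 0.0970 where libraries were centred on their medians. Col1a1 went from 4.9 to 15.5 RPKM in WT sham to 35.1 to 147.4 RPKM in WT TAC, and its difference of -2.44 (SE 0.77) gave a limma adjusted p of 0.269. Fstl1, a secreted glycoprotein of fibroblasts, stood between 18.3 and 20.1 RPKM in WT sham and between 84.6 and 96.9 RPKM in WT TAC, against 26.9 and 22.0 RPKM in caPI3Kalpha sham and 28.9 and 28.7 RPKM in caPI3Kalpha TAC (difference -1.95, SE 0.17, limma adjusted p = 0.00105); it was chosen after its values were seen.

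The size of this result depends on single libraries. Without TAC 11, TAC 211, sham 5 or sham 8 of caPI3Kalpha 3, 4, 5 and 12 genes passed, and without WT TAC 17 4 genes. Leaving out WT sham 7, 13 or 15 left 13, 17 and 15 genes, WT sham 6 gave 66, and WT TAC 1 or 19 gave 36 and 31. Postn, Fstl1 and Ccl8 passed in all 11 of these fits; Col8a1 and Col3a1 did not. Col3a1 reached adjusted p-values of 0.0647 to 0.276 without any 1 caPI3Kalpha library and 0.101 to 0.114 without WT sham 7, 13 or 15 or WT TAC 17. Col8a1 stood at adjusted p-values of 0.0647 to 0.124 without any 1 caPI3Kalpha library and 0.0553 without WT TAC 17. With a term for the library set 532 genes (5.92%) were more negative and 75 (0.835%) more positive in caPI3Kalpha, 36 matrix genes among the former; the caPI3Kalpha libraries all lie in 1 set.

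**Figure D2:**
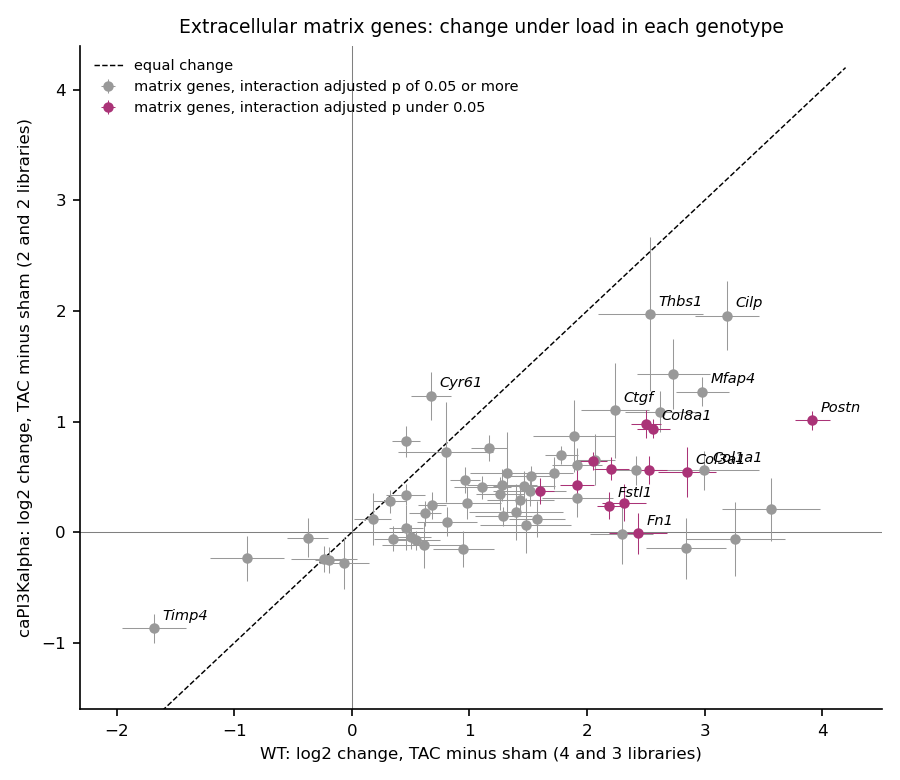
Log2 change, TAC minus sham, of the 66 measured extracellular matrix genes in WT (horizontal axis) and caPI3Kalpha (vertical axis), with bars for the SE of each change and a dashed line where both are equal. Most genes lie to the right of that line, Postn at 3.92 and 1.01, and the 12 coloured genes passed the test of the difference.

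Signals that act on matrix were mixed. Of 24 measured genes of the TGF-beta pathway 3 were separated higher and 1 lower, beside 2.1% and 1.24% of all genes, and the median was 0.00. Tgfb2, a ligand, stood at 3.0 and 2.0 RPKM in sham and 4.2 and 5.2 RPKM in TAC, and Tgfb3 at 3.9 and 4.4 and at 5.9 and 6.7 RPKM. Tgfbr3, the co-receptor betaglycan, went the other way, at 9.0 and 8.6 RPKM in sham and 5.9 and 5.1 RPKM in TAC.

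Fibroblast markers were slightly higher. Of 15 measured 1 was separated higher and 1 lower, beside 2.1% and 1.24% of all genes. Of the 15, 7 had non-overlapping higher groups and 1 lower, beside 22.4% and 20% of all genes, and the median was 0.12. Their summed level ran from 539.7 to 561.6 RPKM in sham and from 587.2 to 623.7 RPKM in TAC. Meox1, a transcription factor of activated fibroblasts, stood at 4.6 and 7.4 RPKM in sham and 9.5 and 11.7 RPKM in TAC. Pdgfra, the receptor that marks fibroblasts, stood at 5.4 and 4.9 and at 6.3 and 8.4 RPKM. The intermediate filament gene Vim overlapped, with 94.9 and 100 RPKM in sham and 85.5 and 96.0 RPKM in TAC, whereas in WT its log2 change was 1.48 (difference -1.59, SE 0.18, limma adjusted p = 0.0067; 0.0665 without TAC 11); it was chosen after its values were seen. The part of cell numbers in the matrix result was not tested.

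Mural cell markers went both ways. Acta2, the actin of smooth muscle, stood at 58.3 and 27.7 RPKM in sham and 14.9 and 19.0 RPKM in TAC, and sham 5 was far above the other 3 libraries. Myh11, the smooth muscle myosin, differed less between the sham libraries, at 7.2 and 6.1 RPKM against 4.4 and 4.9 RPKM in TAC (log2 -0.47, SE 0.12). Of 11 mural markers 1 was separated lower (1.24% of all genes were), 5 had non-overlapping lower groups and 2 higher (20% and 22.4% of all genes did), and the median was -0.20. The 2 higher ones were the pericyte genes Rgs5 (56.5 and 60.1 against 70.0 and 68.1 RPKM) and Pdgfrb (13.0 and 11.5 against 14.9 and 14.4 RPKM), while Tagln, a smooth muscle gene, overlapped (14.9 and 9.6 against 10.1 and 10.6 RPKM); these 3 were chosen after their values were seen. Endothelial markers showed no separated member among 18, with a median of 0.07 (-0.02 without sham 5).

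Macrophage markers had no steady direction. Of 22 measured 1 was separated higher and none lower, beside 2.1% and 1.24% of all genes. The median was -0.02 in caPI3Kalpha and 1.08 in WT, and the markers' summed level of 181.4 and 219.6 RPKM in TAC lay inside the sham values of 235.2 and 158.1 RPKM. Ccl8, a chemokine that attracts monocytes, overlapped at 1.2 and 1.4 RPKM in sham and 1.3 and 0.9 RPKM in TAC, while in WT it stood between 0.6 and 1.0 RPKM in sham and between 8.4 and 13.3 RPKM in TAC. The difference in its response was -3.39 on the log2 scale (SE 0.33, limma adjusted p = 0.00161); it was chosen after its values were seen. Without sham 8, 4 macrophage markers were separated lower, beside 178 of all 8987 genes. Without sham 5 the median of the markers was 0.30.

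Of 19 complement and antigen genes 10 were higher in both TAC libraries and 3 lower, beside 22.4% and 20% of all genes. Past the 1.5-fold limit 3 were separated higher and 1 lower, beside 2.1% and 1.24%. H2-Aa, a chain of major histocompatibility complex class II, stood at 8.7 and 10.1 RPKM in sham and 21.2 and 24.2 RPKM in TAC (log2 1.23, SE 0.12, limma adjusted p = 0.159). Its partner H2-Ab1 was 4.4 and 7.3 RPKM in sham and 10.5 and 13.3 RPKM in TAC, and Cd74, the invariant chain that escorts them, 16 and 19.2 and then 30.4 and 41.8 RPKM. These were the 3 members separated higher, and the list's median was 0.35. The 1 member separated lower was C3, given below. H2-K1, of class I, stood at 16.5 and 18.3 RPKM in sham and 27.5 and 23.6 RPKM in TAC. Without sham 8 or TAC 211 7 and 8 members were separated higher, beside 276 and 169 of all 8987 genes. Of the 25 interferon response genes 18 were measured, none was separated and the median was 0.10 (-0.16 without TAC 11).

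Of 9 measured acute-phase and metallothionein genes 2 were separated lower, Serpina3n and Lcn2, beside 1.24% of all genes, and the median was -0.07 (0.27 without sham 5). Serpina3n, a secreted protease inhibitor of the acute phase, stood at 24.9 and 12.9 RPKM in sham and 7.2 and 8.0 RPKM in TAC (log2 -1.19, SE 0.31, limma adjusted p = 0.293), whereas in WT it stood between 8.1 and 18.2 RPKM in sham and between 37.4 and 88.2 RPKM in TAC. The direction was thus opposite in the genotypes, a difference of -3.44 (SE 0.54, limma adjusted p = 0.0302). It was 0.0599 where libraries were centred, 0.157 without sham 5, 0.197 without TAC 11 and 0.136 without TAC 211 of caPI3Kalpha, and 0.0620 to 0.0910 without WT sham 7, 13 or 15 or WT TAC 17. Lcn2, which encodes lipocalin 2, was 4.7 and 3.2 RPKM in sham and 1.0 and 2.1 RPKM in TAC. C3, the central complement component, was 21.0 and 9.2 RPKM in sham and 6.7 and 6.3 RPKM in TAC. Sham 5 was the highest library for all 3 genes, as it was for Acta2.

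Several genes of calcium handling were lower in both TAC libraries. Atp2a2, which pumps calcium back into its store after each beat, stood at 2386.7 and 2233.4 RPKM in sham and 1665.8 and 1719.2 RPKM in TAC (log2 -0.45, SE 0.08, limma adjusted p = 0.232). Its change in WT was -0.49, and the difference of 0.04 gave an adjusted p of 0.968. Ryr2, the calcium release channel, stood at 110.0 and 135.0 RPKM in sham and 79.0 and 66.3 RPKM in TAC (log2 -0.75, SE 0.14), and Slc8a1, the sodium-calcium exchanger, at 26.5 and 24.5 and at 17.2 and 16 RPKM. In WT the log2 changes of these 2 genes were -0.11 and 0.08, but the tests of the difference gave adjusted p-values of 0.267 and 0.354 in limma (0.0319 and 0.0138 with a set term). Pln, the inhibitor of the calcium pump, was 1535.6 and 1311.5 RPKM in sham and 1190.5 and 1180.6 RPKM in TAC. Over 29 sarcomere and calcium genes 2 were separated higher and 2 lower, beside 2.1% and 1.24% of all genes, and the median was -0.04. Non-overlapping groups went both ways, with 10 of the 29 higher and 10 lower, beside 22.4% and 20% of all genes.

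Among 29 measured ion channel genes none was separated higher and 3 were lower, beside 2.1% and 1.24% of all genes. Non-overlapping lower groups were found for 14 and higher for 2, beside 20% and 22.4%. The median was -0.24, against -0.26 in WT. Kcnq1, a potassium channel that ends the action potential, stood at 11.2 and 10.0 RPKM in sham and 6.6 and 6.0 RPKM in TAC (log2 -0.71, SE 0.11, limma adjusted p = 0.215). Kcnh2, which carries the rapid delayed rectifier current, was 15.6 and 16 RPKM in sham and 11.1 and 9.4 RPKM in TAC. Kcnk3, a background potassium channel, stood at 60.4 and 59.0 and at 45.4 and 46.0 RPKM, and Kcnip2, a subunit of the transient outward current, at 59.9 and 60 and at 46.4 and 48.8 RPKM. For all 4 channels the 2 groups were clear of each other with little spread inside them, while the last 2 stayed under the 1.5-fold limit. Without sham 5 the separated lower members numbered 5, beside 136 of all 8987 genes.

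The largest lower value among separated genes with a mean of at least 5 RPKM was that of Mylk4, a kinase of the myosin light chain kinase family. It stood at 45.8 and 47.9 RPKM in sham and 17.1 and 12.6 RPKM in TAC, which is 0.321 times the sham level (log2 -1.64, SE 0.16, limma adjusted p = 0.159). In WT its change was -1.47. Zbtb16, a transcription factor known to respond to glucocorticoids, stood at 24.8 and 29.2 RPKM in sham and 10.8 and 10.9 RPKM in TAC (log2 -1.27, SE 0.11). Egln3, a prolyl hydroxylase that acts on hypoxia-inducible factors, was 65.1 and 91.6 RPKM in sham and 42.6 and 30.3 RPKM in TAC, and G0s2, an inhibitor of triglyceride lipase, 24.8 and 27.0 and then 16.3 and 7.8 RPKM. Of the 12 lower genes named by the same rule, Acta2, C3 and Serpina3n are given above, and the others were Wnk2, a kinase (15.9 and 12.8 against 6.6 and 5.3 RPKM), Rtn4r, the Nogo receptor (8.7 and 8.4 against 3.9 and 3.2 RPKM), Whrn, a scaffold protein (9.1 and 8.9 against 4.9 and 3.2 RPKM), Snurf, of an imprinted locus (11.2 and 10.9 against 6.2 and 4.2 RPKM), and Tnfaip8 (9.3 and 7.3 against 4.2 and 3.6 RPKM). G0s2 was uneven in TAC, with a log2 change of -0.65 with TAC 11 alone and -1.67 with TAC 211 alone. Among the 12 lower genes Serpina3n passed the interaction test in limma (adjusted p = 0.0302), while Acta2, C3 and the other 9 stood at adjusted p-values of 0.284 or more.

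**Figure D3:**
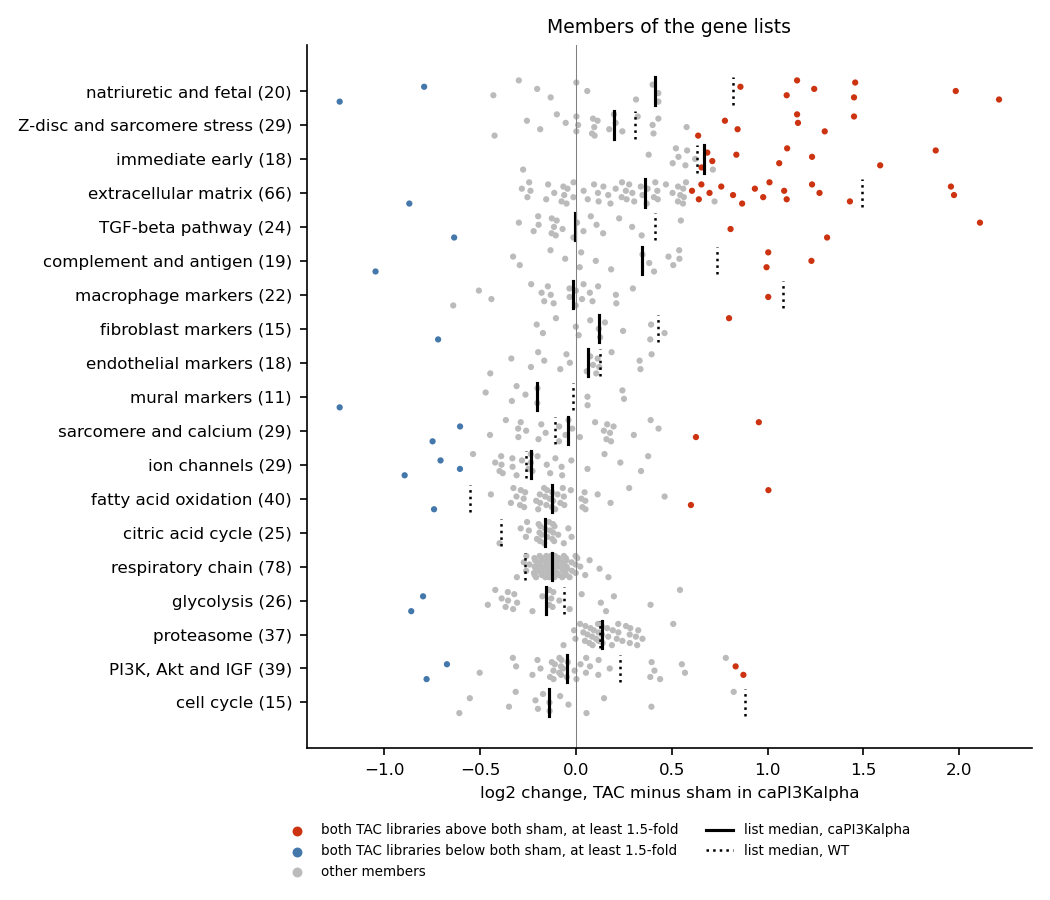
Log2 change, TAC minus sham in caPI3Kalpha, of each member of 19 gene lists (points; the number measured is in brackets), with a solid bar at the list's median and a dotted bar at its median in WT. The matrix list has its median at 0.36 in caPI3Kalpha and 1.49 in WT, and the macrophage list at -0.02 and 1.08, while the ion channel medians of -0.24 and -0.26 almost coincide.

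Metabolic genes were slightly lower, mostly by less than the 1.5-fold limit. Of 40 measured genes of fatty acid oxidation 16 had non-overlapping lower groups and 4 higher, beside 20% and 22.4% of all genes. Of the 40, 1 was separated lower and 2 higher, beside 1.24% and 2.1%, and the median was -0.12, against -0.55 in WT. Slc27a1, a fatty acid transporter, stood at 30.5 and 32.8 RPKM in sham and 22.2 and 15.8 RPKM in TAC, and Ech1, an enzyme for unsaturated fatty acids, at 327.2 and 371.1 and at 263.4 and 249.0 RPKM. Among 25 citric acid cycle genes 18 had non-overlapping lower groups and none higher, beside 20% and 22.4% of all genes, but none was separated and the median was -0.16. Cs, citrate synthase, was 383.1 and 350.1 RPKM in sham and 307.2 and 292.7 RPKM in TAC. Of 78 respiratory chain genes 40 were lower without overlap and 3 higher, again with none separated and a median of -0.13. Among the regulators of these genes Ppargc1a stood at 14.8 and 11.9 RPKM in sham and 9.7 and 9.6 RPKM in TAC, Ppara at 11.4 and 11.6 and at 8.4 and 9.6 RPKM, and Esrra at 36.3 and 36.5 and at 29.3 and 30.4 RPKM.

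The 2 separated higher members of fatty acid oxidation went against the list. Pdk4, the kinase that shuts pyruvate dehydrogenase and favours fat as fuel, stood at 52.1 and 70.0 RPKM in sham and 94.6 and 156.5 RPKM in TAC (log2 1.00, SE 0.27). In WT sham it stood at 63.9, 140.2, 75.3 and 123.0 RPKM, of which the second and last lay above TAC 11 of caPI3Kalpha. The WT TAC libraries, at 53.5, 49.9 and 51.4 RPKM, were all below the caPI3Kalpha TAC libraries. Ucp3, a mitochondrial carrier, stood at 4.9 and 5.8 RPKM in sham and 8.7 and 8.0 RPKM in TAC, against 5.2 to 11.1 RPKM in WT sham and 3.0 to 3.2 RPKM in WT TAC. The differences between the genotypes, 1.89 (SE 0.44) for Pdk4 and 1.82 for Ucp3, gave limma adjusted p-values of 0.128 and 0.0655, and 0.023 and 0.0126 with a set term. Further lower members of fuel lists were Phka1, a subunit of phosphorylase kinase (10.8 and 9.1 against 5.8 and 5.2 RPKM), and Ppm1k, the phosphatase that activates breakdown of branched-chain amino acids (12.4 and 11.9 against 6.9 and 7.1 RPKM). Glycolysis genes had a median of -0.16 with 17 of 26 lower and 5 higher without overlap, and branched-chain genes -0.16 with 13 of 20 lower and 1 higher, beside 20% and 22.4% of all genes. Itgb1bp3, a kinase that makes a precursor of NAD, was higher, at 5.5 and 4.7 RPKM in sham and 11.2 and 14.8 RPKM in TAC.

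Members of the PI3K pathway other than Pik3ca showed single differences. Of 39 measured genes of PI3K, Akt and insulin-like growth factor signalling 2 were separated higher and 2 lower, with a median of -0.05. Of all genes 2.1% and 1.24% were. Irs1, an adaptor of the insulin receptor upstream of PI3K, stood at 6.9 and 4.8 RPKM in sham and 3.1 and 3.2 RPKM in TAC, and Igf2, a ligand, at 6.0 and 4.7 and at 3.0 and 3.3 RPKM. Igfbp6, which binds that ligand, stood at 4.6 and 4.3 RPKM in sham and 7.6 and 9.1 RPKM in TAC. Foxo3, a transcription factor that Akt holds out of the nucleus, was 10.6 and 16 RPKM in sham and 8.1 and 8.7 RPKM in TAC, and Sqstm1, an autophagy receptor, 87.1 and 115.0 and then 153.5 and 168.6 RPKM. Proteasome subunits were higher by little: 24 of 37 had non-overlapping higher groups beside 22.4% of all genes, none was separated, and the median was 0.14. Cell cycle genes showed no separated member among 15, with a median of -0.14 (0.04 without sham 8) against 0.88 in WT; Top2a, a topoisomerase of dividing cells, stood at 0.5 and 1.8 RPKM in sham and 0.6 and 0.4 RPKM in TAC. Cytosolic ribosomal proteins had a median of 0.06 and no separated member among 79.

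Immediate early genes were higher, above all in TAC 211. Of 18 measured 9 were separated higher and 14 had non-overlapping higher groups, beside 2.1% and 22.4% of all genes, and the median was 0.67. Without sham 5, 15 were separated higher, beside 227 of all 8987 genes. The number was 6 both without sham 8 and without TAC 211, beside 276 and 169 of all genes. Nr4a1, an orphan nuclear receptor, stood at 5.7 and 1.5 RPKM in sham, 7.4 RPKM in TAC 11 and 20.7 RPKM in TAC 211. Cyr61, a secreted matrix signal, stood at 21.2 and 22.0 RPKM in sham and 41.1 and 64.3 RPKM in TAC, and Btg2, which restrains growth, at 9.8 and 6.3 and at 13.3 and 22.9 RPKM. Of these 3 genes Nr4a1 had the sham libraries farthest apart.

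The 2 TAC libraries differed in which genes were high in 1 of them alone. By a rule of at least 5 RPKM and at least 4 times the highest of the other 3 libraries (0.5 added to both), there were no such genes in sham 5 or sham 8, 3 in TAC 11 and 1 in TAC 211; at 2 times there were 4, 2, 9 and 28. The 1 gene of TAC 211 was Thbs1. Its 28 genes at 2 times were chosen after their values were seen, and 3 of them follow. Gadd45b, a sensor of stress and DNA damage, stood at 1.2, 1.7 and 0.9 RPKM in sham 5, sham 8 and TAC 11 and at 8.1 RPKM in TAC 211. Cdkn1a, the cell cycle inhibitor p21, stood at 9.4, 7.7 and 6.3 RPKM and then 36.9 RPKM, and Irs2, an insulin receptor adaptor, at 2.0, 1.5 and 1.2 RPKM and then 8.2 RPKM. For these 3 genes TAC 11 was the lowest library of the 4. Atf3, a stress transcription factor also chosen after its values were seen, stood at 1.5 and 1.4 RPKM in sham, 2.9 RPKM in TAC 11 and 9.6 RPKM in TAC 211.

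Genes of atrial muscle were those that met the 4-fold rule in TAC 11 alone. The 3 genes of that library were Sln (0.2, 0.8, 13.7 and 0.4 RPKM in sham 5, sham 8, TAC 11 and TAC 211), which encodes sarcolipin, Myl7 (0.5, 2.3, 20.8 and 0.4 RPKM) and Myl4 (0.9, 3.0, 20.4 and 1.8 RPKM), the atrial myosin light chains. All 3 are defining markers of atrial muscle and were low in TAC 211, while sham 8 was the second highest library for each. The 7 listed atrial genes other than Nppa summed to 13.8 and 17.5 RPKM in sham, 70.5 RPKM in TAC 11 and 12.7 RPKM in TAC 211. Of the other members Dkk3 stood at 0.8 RPKM in both sham libraries and at 2.2 and 1.9 RPKM in TAC, Stard10 at 5.6, 5.2, 8.2 and 4.6 RPKM, Nr2f2 at 2.2, 2.3, 2.4 and 1.1 RPKM and Tbx5 at 3.6, 3.1, 2.8 and 2.5 RPKM. The median log2 change of the 8 measured atrial genes was 1.18 with both TAC libraries and -0.15 without TAC 11. Nppa, which is also an atrial gene, was higher in TAC 211 than in TAC 11, and its log2 change was 2.51 with TAC 211 alone and 1.90 with TAC 11 alone; in TAC 211 Myl7 and Sln were at 0.4 RPKM. Myl2, the ventricular light chain, stood at 3049.7 RPKM in TAC 11, against 20.8 RPKM for Myl7. The part of atrial RNA in the Nppa values was not tested.

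Blood RNA also varied between hearts, in both groups. Hba-a1, an alpha globin gene, stood at 4.9, 104.9, 314.4 and 12.5 RPKM in sham 5, sham 8, TAC 11 and TAC 211, and Hba-a2, its near-identical copy, at 4.2, 91.0, 272.6 and 10.8 RPKM. The beta globin genes Hbb-b1 (1.1, 22.6, 65.1 and 2.5 RPKM) and Hbb-b2 (1.9, 38.0, 109.3 and 4.2 RPKM) had the same order of libraries. Reads of such copies may be split between them in ways that the sources used here do not give. The groups overlapped for all 4 genes, and TAC 11 was highest and sham 8 second, about 3 times lower. The median log2 change of the 6 measured erythroid genes was 1.22, but -0.88 without TAC 11 and -0.72 without sham 5, so it has no steady direction. Bpgm and Fech, enzymes of red cells that other tissues also use, were even, at 4.9, 5.7, 5.8 and 4.8 RPKM and at 20.4, 22.5, 25.1 and 25.5 RPKM. The part of atrial and blood RNA in other results was not tested. Without TAC 11 the median log2 change was 0.40 for the matrix list and 0.29 for the Z-disc list, beside 0.018 for all genes. Without TAC 211 these medians were 0.30 and 0.12, beside 0.002 for all genes.

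**Figure D4:**
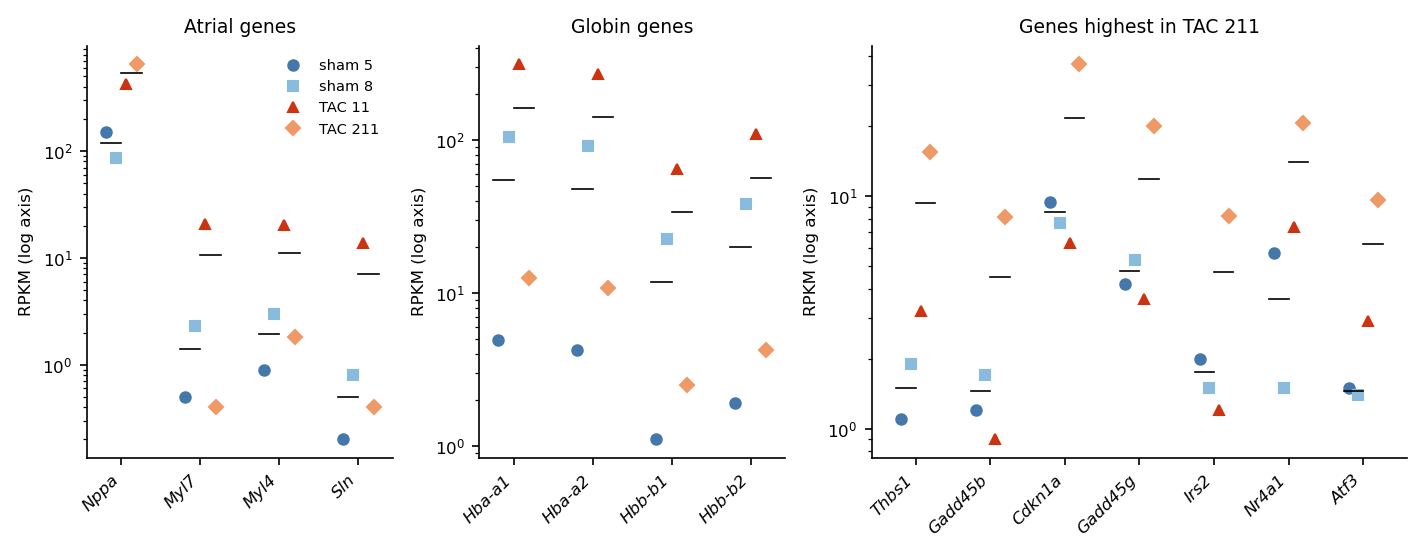
RPKM (log axis) of 4 atrial genes, 4 globin genes and 7 genes highest in TAC 211, in each caPI3Kalpha library, with short black lines at the mean of the 2 libraries of a group. TAC 11 stands alone at the top for Myl7, Myl4, Sln and the globins, whereas Nppa is high in both TAC libraries and Thbs1 to Atf3 are highest in TAC 211.

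None of the listed lymphocyte, mesothelial or nerve, cartilage and lung markers is among the genes of the table. Of 13 skeletal muscle genes 4 were measured, with a median of 0.27 (0.08 without sham 5 and 0.55 without sham 8). Myl1, a light chain of fast muscle, was low in sham 5 alone, at 27.7 RPKM against 76.7 RPKM in sham 8 and 74.6 and 66.3 RPKM in TAC. Mybpc2, the fast myosin binding protein, stood at 10.1 and 12.3 RPKM in sham and 22.3 and 30.0 RPKM in TAC, while the fast myosins Myh1 (7.3, 5.5, 5.4 and 6.3 RPKM) and Myh4 (3.2, 2.5, 2.5 and 2.9 RPKM) overlapped. Of the 4 measured adipocyte markers Car3 was highest in sham 5, at 4.7 RPKM against 0.5 to 1.1 RPKM in the other libraries, and the platelet gene Pf4 stood between 2.8 and 6.1 RPKM with overlapping groups. The Y-linked genes Ddx3y, Eif2s3y, Uty and Kdm5d were present in all 4 libraries, with Ddx3y between 10.2 and 14.5 RPKM.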

How the data were processed

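Left ventricular mRNA of 11 mice was sequenced by the authors from poly-A selected, single-end libraries per the labels, and 4 of them are compared here. The table gives RPKM values computed and deposited by the authors, printed to 1 decimal; every gene in it reaches 3 RPKM in at least 1 library. The submitters' processing notes list Bowtie, CASAVA 1.6, Partek 6.5 and the build mm9, without saying what each was used for. Of 9251 lines 261 had no symbol, 1 held an error mark and 2 were repeats. The depth is unknown, so no counting error can be given.

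Values were tested as log2(RPKM + 0.5) with limma 3.58.1 (lmFit, eBayes with trend) in R 4.3.3, two-sided, with Benjamini-Hochberg adjustment over 8987 genes. Fold changes are on that scale and understate low genes. An exact permutation test of 2 against 2 libraries cannot go below p = 0.333. The script was tested on simulated data. Libraries were put in a set by their side of the first principal component (52.0% of variance). For WT sham 15 the title and source name differ, and the title was used. P-values rest on the spread between these animals, which eBayes draws toward that of other genes. The main fit has 2 residual degrees of freedom and 5.071 after this step. In the interaction model without a set term the spread also holds the split of the WT libraries into 2 sets.

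The comparison, lists and named genes were chosen with earlier results of these data known. Named genes are Nppa, Cilp and Ankrd1, the 12 largest higher and 12 largest lower separated genes with an unadjusted p under 0.05 and a mean of at least 5 RPKM, a set of known heart genes, up to 4 members per list by smallest p, all atrial and erythroid members, genes high in 1 library alone and up to 6 of these genes with the smallest interaction p. Atf3, Bgn, Mfap5, S100a4 and other genes said to be so were chosen after their values were seen. Alternatives were other pseudocounts, scalings, filters, models and leaving out each library; leaving out WT libraries was added after seeing the data. The small RNA libraries were not used here. Some results are not reported here.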

Additional observations from a re-analysis of the deposited data

Results flagged for a closer look

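Among the genes named above, 11 responded differently to load in caPI3Kalpha than in WT by the interaction test in limma, each with a smaller or opposite change in caPI3Kalpha. On the log2 scale the differences were -2.91 for Postn, -1.63 for Col8a1, -1.52 for Mfap5, -1.41 for Bgn, -2.31 for Col3a1, -2.45 for Fn1 and -1.95 for Fstl1, all matrix genes. They were -3.39 for the chemokine gene Ccl8, -3.44 for Serpina3n, -1.59 for Vim and -2.86 for S100a4. Postn, Fstl1 and Ccl8 passed with other pseudocounts and scalings, with a set term and without any 1 library, and each of the other 8 was lost in at least 1 of these fits. Bgn and Mfap5 reached adjusted p-values of up to 0.124 and 0.136 in the fits without any 1 caPI3Kalpha library, and 0.0642 and 0.0639 without WT TAC 17. Fn1 stood at 0.0761 with quantile normalization, 0.0705 where libraries were centred, 0.103 to 0.239 without any 1 caPI3Kalpha library and 0.0737 to 0.102 without WT sham 7, 13 or 15 or WT TAC 17. S100a4 stood at 0.0952 without TAC 11, 0.0822 without TAC 211 and 0.0553 without WT TAC 17, all adjusted p-values of limma. S100a4, a calcium-binding protein of fibroblasts and leukocytes, stood at 5.9 and 2.7 RPKM in caPI3Kalpha sham and 2.2 and 2.3 RPKM in TAC, and is one of the genes for which sham 5 was high. Bgn, which encodes biglycan, stood at 82.7 and 78.9 RPKM in sham and 126.1 and 126.5 RPKM in TAC, and Mfap5, of elastic fibres, at 5.5 and 6.0 and at 10.7 and 13.0 RPKM.

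In WT sham, Acta1 in animal 6 stood far from the other 3 animals, at 455.2 RPKM against 89.9, 93.7 and 47.4 RPKM in animals 7, 13 and 15. Its value is close to the 448.3 and 403.8 RPKM of the caPI3Kalpha sham libraries, which lie in the same library set, and the WT change of Acta1 was 1.40 within that set and 3.24 over all WT libraries. The same check was made for 11 genes in these 4 WT sham animals, and 1 stood out. Chance gives about 1 in 20 for independent groups. That rate does not apply here, since the genes share the same animals and animal 6 is the only WT sham library of its set.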

How the results depend on the processing

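No paired analysis was possible because the mRNA groups compared share no animal numbers. For caPI3Kalpha TAC against sham, 0 genes passed limma with either pseudocount (0.1 or 1), at a mean of at least 3 RPKM, without any 1 library, or in 1 model of all 4 groups. With quantile normalization 1 passed, centred on library medians 8, with robust eBayes 17 and with a set term 93. Separated genes ran from 169 to 371 higher and from 104 to 200 lower over the fits without 1 library; the other settings kept both counts within 1.5 times. Genes whose load response differed from WT numbered 28 or 30 with other pseudocounts, 24 at the higher filter and 26 with robust eBayes, 18 with quantile normalization, 12 centred on library medians and 607 with a set term. Without 1 library they ran from 3 to 66. Genes high in 1 library alone went from 0 to 4 in sham 5, 0 to 2 in sham 8, 3 to 9 in TAC 11 and 1 to 28 in TAC 211 when 2-fold replaced 4-fold.

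Of 73 named genes followed through the settings, none turned direction under a change of pseudocount, scaling or model. Without 1 library Myh7 ran from -0.12 to 0.75, Ccl8 from -0.36 to 0.00223 and Fn1 from -0.27 to 0.24 (0.01 without sham 8). Of 38 list medians none changed sign under another pseudocount or scaling, but 17 did without 1 library. Atrial markers ran from -0.15 to 1.48 and endothelial markers from -0.019 to 0.061, and the other 15, most of them near 0, include macrophage, TGF-beta, interferon and erythroid genes. Under a set term 30 of the 73 genes passed, Nppa, Ankrd1, Cilp and Postn among them. All 4 caPI3Kalpha libraries lie in 1 set, so the term left their log2 changes as they were (Ankrd1 1.45, Cilp 1.96). Only the spread, taken from all 11 libraries, and its degrees of freedom differed. The set was drawn from these same values, so these calls are no further evidence about the 4 hearts. Unknown depth and 2 hearts a side limit all values.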

Other observations

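Genes of the circadian clock set TAC 211 apart. Of 16 measured clock genes none was separated, and the median log2 change of -0.18 was -0.49 without TAC 11 and 0.03 without TAC 211. Dbp, a clock output gene, stood at 27.6, 29.4 and 34.4 RPKM in sham 5, sham 8 and TAC 11 and at 9.2 RPKM in TAC 211. Per3, a clock repressor, stood at 4.6, 5.3 and 4.7 RPKM and then 2.2 RPKM, while Per1, which also responds to acute stimuli, was highest in TAC 211 at 13.4 RPKM against 5.9, 6.8 and 6.2 RPKM. The time of day of collection is not given in the sources used here. These genes were chosen after their values were seen.

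Sham 8 also held genes that were at least 2 times as high as in the other 3 libraries. The heat shock genes Hspa1b (1.2, 8.8, 2.0 and 1.7 RPKM in sham 5, sham 8, TAC 11 and TAC 211) and Hspa1a (1.1, 7.6, 2.3 and 2.0 RPKM) were high in sham 8, both chosen after their values were seen.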
